A study of Rattus norvegicus with 12 samples.

Results

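Smooth muscle and actin genes were followed in cultured rat astrocytes after exposure to PT109B, a compound known here only by its code name. The genes were taken by symbol from a list of 10, of which 9 were found among the 9721 genes of the deposited table: the cytoplasmic actins Actb and Actg1, the smooth muscle actin Acta2, Tagln, Cnn1, Myl9, Myh11, Lmod1 and Xirp1. The desmin gene Des was not analysed here. Primary astrocytes from the midbrain of wild-type newborn Sprague-Dawley rats had been grown in DMEM with 10% fetal bovine serum, and RNA was sequenced from 12 libraries, 3 each for a control at 0 h and for 1.5, 3 and 6 h with 10 µM PT109B. All groups share the serum and the culture, and no vehicle is named for the control. Since the control is at 0 h with no untreated group at the later times, the compound and the time since its addition cannot be told apart in these comparisons. Whether the replicates are separate cultures or litters is not stated. The p-values here set differences between groups against the spread of the replicates only, and that spread may be technical. The comparisons ask how transcript levels differed from control at each time, and between successive times.

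Actin filaments are built from actin monomers, and in smooth muscle and in contractile non-muscle cells they are pulled on by myosin II. Many genes of this apparatus carry CArG boxes, sites for serum response factor (SRF), whose partners of the myocardin family sense the pool of free actin monomers. Serum-grown astrocytes contain actin stress fibres, and cultures of brain cells can also hold fibroblast-like and mural cells, which express the smooth muscle genes strongly.

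Expression was given as CPM, the count relative to a common library total, on library sizes scaled by TMM, a method that sets the bulk of genes level between libraries, and as FPKM, which also divides by gene length. Total counts ran from 9368972 to 12498050 per library. All 9 genes passed the filter on low counts that kept 9491 genes. Differences were tested with edgeR's quasi-likelihood test, fitted once to the 12 libraries, with p adjusted over all genes tested by the Benjamini-Hochberg method, and a gene was called changed at an adjusted p below 0.05. A value given as ± is the SD of 3 libraries for a level and the SE for a log2 fold change.

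Of the treated libraries, 3 stood apart from the others of their group in genes outside the smooth muscle set. Summed CPM of 17 of 17 microglia markers was 3126 to 3826 in the controls and 396 and 383 in replicates 1 and 2 at 1.5 h, but 4060 in replicate 3. It was 3124 to 3573 at 3 h and 2760 to 3386 at 6 h. In these markers 1.5 h replicate 3 was thus near the other groups, and replicates 1 and 2 were far below them. Summed CPM of 20 of 20 mitosis genes was 1729 to 2365 in the controls, 165 and 190 in replicates 2 and 1 at 3 h against 1353 in replicate 3, and 149 and 168 in replicates 2 and 3 at 6 h against 1290 in replicate 1. Counts of changed genes are therefore given with these 3 libraries (1.5 h replicate 3, 3 h replicate 3 and 6 h replicate 1) and without them. Astrocyte markers were present in every library, with a summed CPM over 11 of 14 genes of 5822 to 11775, and the lowest level of Gfap was 934 CPM.

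Levels per gene length spanned a wide range in the control libraries. Actb was highest at 3155 ± 497 FPKM (n = 3) and Actg1 next at 1825 ± 323 FPKM (n = 3). Tagln followed at 563 ± 248 FPKM, Acta2 at 83.1 ± 30.1, Myl9 at 50.2 ± 17.2 and Cnn1 at 40.6 ± 17.4 (n = 3 each). Lmod1 at 5.01 ± 1.93, Myh11 at 1.22 ± 0.186 and Xirp1 at 0.429 ± 0.174 FPKM were the lowest (n = 3 each). The SD ranges of Acta2, Myl9 and Cnn1 overlapped, but Acta2 was above Myl9 and Myl9 above Cnn1 in each of the 3 control libraries. At 6 h the order at the bottom had changed, with Xirp1 at 1.60 ± 0.292, Myh11 at 0.690 ± 0.451 and Lmod1 at 0.211 ± 0.0358 FPKM (n = 3 each). The proteins of Actb and Actg1 are close to identical, as are those of Acta2 and the other muscle actins. Their coding sequences are alike to a lesser degree, so the split of reads between such genes may be uncertain. The Actg1 count was not whole in 4 libraries.

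**Figure D1:**
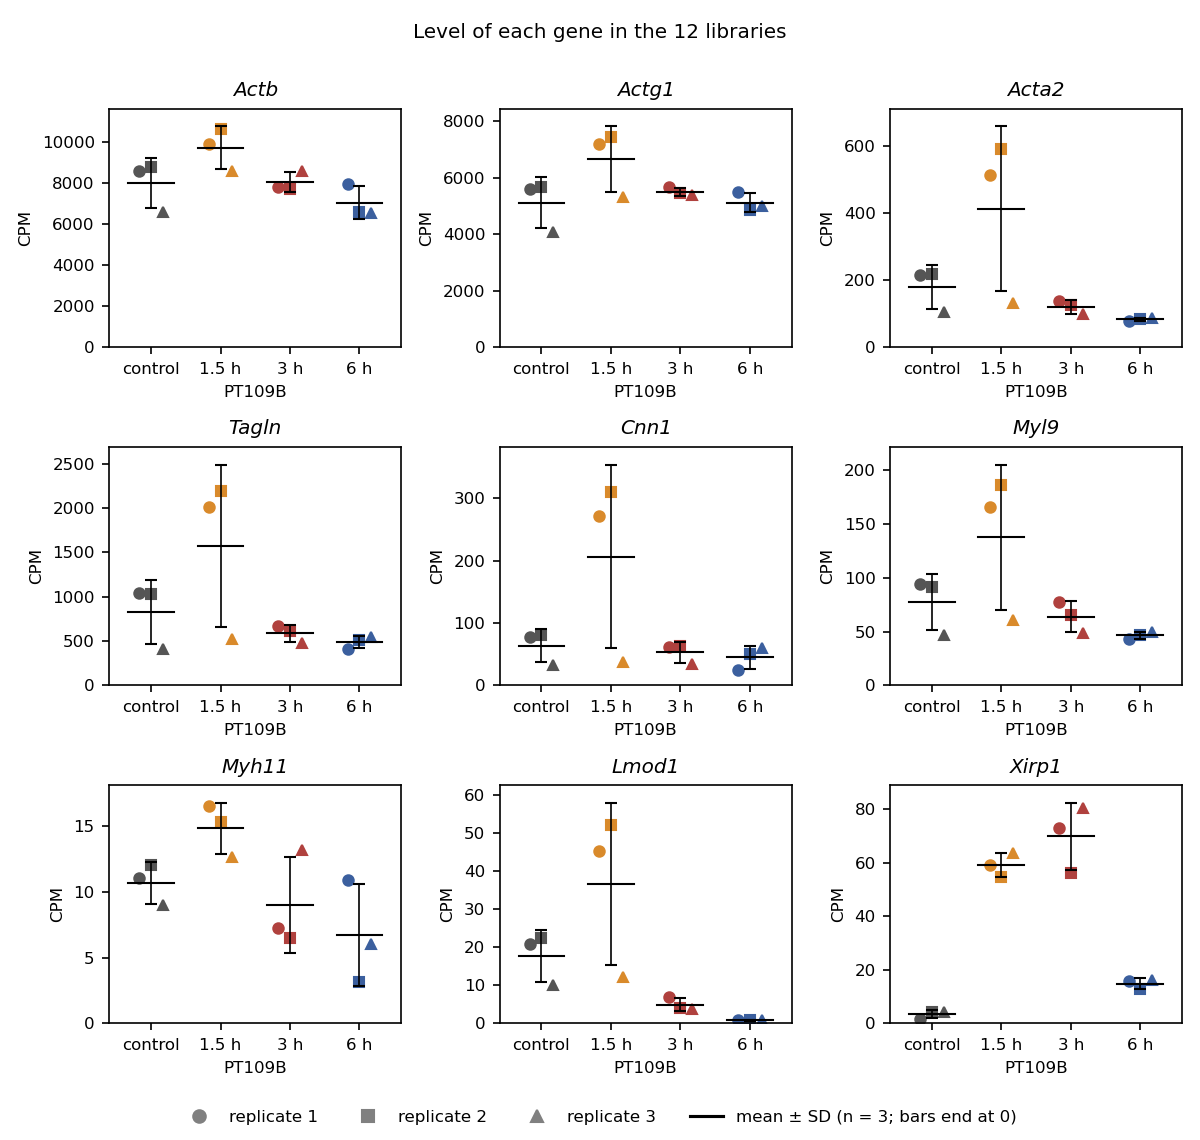
Expression of the 9 genes in each library, in CPM on linear axes that start at 0 and differ between genes, by time with PT109B. Symbol shape gives the replicate number of each library, and bars are the mean ± SD of 3 libraries, ending at 0. Xirp1 stands at 54.7 to 63.7 CPM at 1.5 h against 4.36 at most in the controls, and Lmod1 ends at 0.800 to 0.942 CPM at 6 h.

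Xirp1 (ENSRNOG00000037085) rose at every time, and it was the only one of the 9 genes called higher than control at any time, where 1.95%, 13.5% and 18.7% of all genes tested were called higher at 1.5, 3 and 6 h. It encodes an actin-binding repeat protein known from the intercalated discs of heart and from damaged skeletal muscle. Its level in the controls was 1.80, 4.36 and 4.31 CPM. At 1.5 h it was 59.2, 54.7 and 63.7 CPM, at 3 h 73.2, 56.2 and 80.5 CPM, and at 6 h 15.8, 12.7 and 16.3 CPM. Every treated library was above every control library, including the 3 libraries that stood apart. The log2 fold change against control was 4.08 ± 0.30 at 1.5 h (edgeR adjusted p = 7.22e-05), a 16.9-fold rise. At 3 h the log2 fold change was 4.32 ± 0.30 (edgeR adjusted p = 2.76e-05), or 19.9-fold. It was 2.09 ± 0.28 at 6 h (edgeR adjusted p = 0.000557), or 4.26-fold. Between 3 and 6 h Xirp1 fell by 2.23 on the log2 scale (SE 0.27, edgeR adjusted p = 0.00624), with no overlap between the groups, and between 1.5 and 3 h the log2 difference was 0.24 ± 0.26 (edgeR adjusted p = 0.493).

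Markers of striated muscle cells were low in every library. Of 13 such markers 2 were in the table, and the summed CPM of Myod1 and Tnnt1 was 2.07 to 2.29 in the controls, 1.01 to 3.52 at 1.5 h, 5.21 to 5.61 at 3 h and 1.14 to 2.36 at 6 h. At 3 h 1 of the 2 was called higher. Neither was at 0 in any library, and the part of such cells in the Xirp1 level was not tested. The genes whose log2 CPM over the 12 libraries, each centred on its own mean, lay closest to Xirp1 were RGD1564664, the stress-response factor Atf3, the circadian and hypoxia-responsive repressor Bhlhe40 and the immediate early factor Egr3. Their root mean square differences from Xirp1 were 0.527, 0.689, 0.738 and 0.760, where Xirp1 itself spread by 1.725 around its mean.

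The RefSeq promoter table (build GRCr8) held 4 of the 9 genes, namely Xirp1, Acta2, Actg1 and Cnn1. The 250 bases before the start are shown for the gene that rose, for the smooth muscle actin and for a cytoplasmic actin, because they differ in the elements they hold. Capitals mark matches, on either strand, to the CArG box of SRF or a form of it with 1 C or G within its A and T core, to the MEF2 element, and to the AP-1 site TGACTCA or TGAGTCA. These motifs were chosen after the sequences had been seen.
Xirp1, chr8:128635012-128635261, minus strand: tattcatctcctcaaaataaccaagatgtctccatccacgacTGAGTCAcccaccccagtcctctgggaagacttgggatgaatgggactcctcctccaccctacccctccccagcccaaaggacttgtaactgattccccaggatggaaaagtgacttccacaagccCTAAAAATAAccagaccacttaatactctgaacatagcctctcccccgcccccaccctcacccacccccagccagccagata
Acta2, chr1:241172504-241172753, minus strand: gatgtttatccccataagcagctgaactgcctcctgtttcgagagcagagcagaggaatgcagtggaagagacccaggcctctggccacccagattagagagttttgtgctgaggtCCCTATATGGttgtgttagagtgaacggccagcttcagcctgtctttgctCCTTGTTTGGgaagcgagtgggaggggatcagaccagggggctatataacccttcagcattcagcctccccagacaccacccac
Actg1, chr10:106120952-106121201, minus strand: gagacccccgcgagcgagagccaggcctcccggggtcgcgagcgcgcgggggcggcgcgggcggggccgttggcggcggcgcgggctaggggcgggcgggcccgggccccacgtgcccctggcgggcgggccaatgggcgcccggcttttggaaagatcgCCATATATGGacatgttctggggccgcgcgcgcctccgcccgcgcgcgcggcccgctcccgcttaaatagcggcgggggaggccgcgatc
The Xirp1 window, at the first of 3 annotated starts, held the AP-1 site at bases -208 to -202 and the MEF2 element at -82 to -73, counted from the start. The window of the second start, close by, holds a match to the same motifs at -216 to -210 and -90 to -81, and in that of the third none was found. The Acta2 window held CArG-like elements at -134 to -125 and at -84 to -75. Actg1 had a full CArG box at -90 to -81, and in Cnn1 none of these motifs was found in the window at chr8:28908187-28908436. Among 33465 promoter windows of the same length 1.5% held a CArG box, 6.84% a CArG-like element, 2.96% a MEF2 element and 4.05% an AP-1 site. The MEF2 and AP-1 motifs do not overlap each other in Xirp1, and a match is a description of the letters only.

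Lmod1 (ENSRNOG00000051548) was the only one of the 9 genes called lower than control, at 3 and 6 h, where 7.94% and 11.8% of all genes tested were called lower, and it fell further at each step from 1.5 h on. It encodes leiomodin, a nucleator of actin filaments in smooth muscle. The controls had 20.9, 22.6 and 10.0 CPM, and the 1.5 h libraries 45.4, 52.3 and 12.3 CPM. At 3 h the level was 6.98, 4.18 and 3.76 CPM, and at 6 h 0.942, 0.821 and 0.800 CPM, from counts of 11, 8 and 7. The 1.5 h libraries overlapped the controls, since replicate 3 lay between control libraries, whereas all 3 h libraries were below all controls and all 6 h libraries below all 3 h libraries. The log2 fold change against control was 1.04 ± 0.48 at 1.5 h (edgeR adjusted p = 0.240), and Lmod1 fell by 1.84 at 3 h (SE 0.50, edgeR adjusted p = 0.0270) and fell by 4.36 at 6 h (SE 0.59, edgeR adjusted p = 0.000557). The last of these is 20.5-fold lower. Lmod1 also fell by 2.88 between 1.5 and 3 h (SE 0.51, edgeR adjusted p = 0.00714) and fell by 2.52 between 3 and 6 h (SE 0.58, edgeR adjusted p = 0.0410). The 3 h call was lost without control replicate 1, control replicate 2 or 3 h replicate 2 (edgeR adjusted p = 0.0848, 0.0890 and 0.0902). The call between 3 and 6 h was lost in 5 of the 6 fits without 1 library (edgeR adjusted p = 0.0812 to 0.130) and held without 3 h replicate 3.

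Genes with the profile nearest to Lmod1 were the BMP antagonist Nog, Sytl2, and Smad6 and Smad9, which act in BMP signalling. Their root mean square log2 differences were 0.634, 0.705, 0.756 and 0.779 over 12 libraries, against a spread of 1.823 for Lmod1. At 6 h the log2 fold changes of these 4 genes were -2.99, -2.45, -2.72 and -2.86.

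Acta2, Tagln, Cnn1 and Myl9 encode smooth muscle actin, the actin cross-linker transgelin, calponin, which damps myosin activity, and the regulatory light chain of myosin II. Their levels were high or low in the same libraries for the most part, and none was called different from control at any time in the edgeR fit of all 12 libraries, where Acta2 at 1.5 and 6 h and Cnn1 at 1.5 h had unadjusted p of 0.0251, 0.0364 and 0.0278. With other settings some calls appeared at 6 h. DESeq2 called Acta2 lower (log2 fold change -1.10, DESeq2 adjusted p = 0.0421), as did edgeR with library size scaling (-1.33, edgeR adjusted p = 0.04999). Of 9491 genes tested, those fits called 1500 and 1799 lower, where the main fit called 1120 lower. In an edgeR fit of only the 6 h and control libraries, Acta2 (-1.13) and Myl9 (-0.77) were called lower (edgeR adjusted p = 0.0164 and 0.0478). That fit called 39.7% of all genes tested, with 1607 of 9329 called lower. For Acta2 (ENSRNOG00000058039) the controls had 215.6, 216.4 and 104.7 CPM and the 1.5 h libraries 513.1, 589.7 and 131.5 CPM. The 3 h libraries had 136.2, 125.4 and 97.6 CPM and the 6 h libraries 78.4, 83.7 and 87.3 CPM. Replicates 1 and 2 at 1.5 h were above all controls while replicate 3 lay between them, the 3 h libraries overlapped the lowest control, and the 6 h libraries were all below it. The log2 fold change of Acta2 against control was 1.20 ± 0.46 at 1.5 h (edgeR adjusted p = 0.180), -0.58 ± 0.46 at 3 h (edgeR adjusted p = 0.365) and -1.11 ± 0.46 at 6 h (edgeR adjusted p = 0.0904). Acta2 was called between 1.5 and 3 h, where it fell by 1.78 (SE 0.47, edgeR adjusted p = 0.0286) although the groups overlapped. That call was lost without replicate 1 or 2 of either group (edgeR adjusted p = 0.0727 to 0.103). Between 1.5 and 3 h DESeq2, and edgeR with scaling by library size or depth, called 5 genes lower, with Tagln, Cnn1 and Myl9 beside Acta2 and Lmod1. Of all genes tested 14%, 15.6% and 14.1% were called lower in those fits. In an edgeR fit of only the 1.5 and 3 h libraries 0 of the 9 genes were called, where 0.141% of all genes were called lower. The edgeR adjusted p of those 3 genes with TMM scaling was 0.0597, 0.0607 and 0.0633.

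Tagln (ENSRNOG00000017628) showed a similar library pattern at a higher level. It had 1044, 1036 and 410 CPM in the controls, 2016, 2188 and 526 at 1.5 h, 672, 608 and 480 at 3 h and 408, 515 and 542 at 6 h. Control replicate 3 and 1.5 h replicate 3 were again the low libraries of their groups, and the later groups overlapped the lowest control. The log2 fold changes of Tagln were 0.93 ± 0.48, -0.50 ± 0.48 and -0.76 ± 0.48 (edgeR adjusted p = 0.291, 0.456 and 0.238).

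Cnn1 (ENSRNOG00000027736) had the widest spread of these genes. It was at 76.9, 81.3 and 32.7 CPM in the controls and at 271.8, 309.8 and 37.9 CPM at 1.5 h. It was at 61.8, 63.2 and 33.7 CPM at 3 h and at 24.7, 50.8 and 59.3 CPM at 6 h. At 6 h replicate 1 was the low library, and every treated group overlapped the controls. Against control, Cnn1 had log2 fold changes of 1.70 ± 0.66, -0.27 ± 0.65 and -0.50 ± 0.65 (edgeR adjusted p = 0.188, 0.781 and 0.571).

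Myl9 (ENSRNOG00000020246) had 94.0, 91.6 and 47.2 CPM in the controls, 165.7, 186.7 and 60.3 CPM at 1.5 h, 77.7, 65.0 and 48.8 CPM at 3 h and 42.7, 46.9 and 49.4 CPM at 6 h. Only replicates 1 and 2 at 1.5 h exceeded the controls, and the 6 h group overlapped the lowest control. Against control, Myl9 had log2 fold changes of 0.83 ± 0.38, -0.28 ± 0.38 and -0.74 ± 0.38 (edgeR adjusted p = 0.246, 0.606 and 0.158). The profiles of Tagln and Myl9 both lay nearest to that of Tpm1, a tropomyosin of the same filaments, with root mean square log2 differences of 0.150 and 0.118. Tagln was the third nearest gene to Acta2, after the glutamate receptor gene Gria4 (0.208) and Phldb2 (0.223), with a difference of 0.232. The nearest gene to Cnn1 was Sema3d, a secreted guidance factor, at 0.183.

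Fibroblast and meningeal markers were high in the same 1.5 h libraries. Summed CPM of 13 of 14 fibroblast and meningeal markers, led by Col1a1, Col1a2 and Col3a1, was 1316, 1673 and 1366 in the controls. It was 5547 and 5778 in the 1.5 h replicates 1 and 2, in which the contractile genes were high, and 1397 in replicate 3, in which they were not. At 3 h it was 1925, 1976 and 1358, and at 6 h 1141, 1367 and 1476. Of these markers Ptgds was at 0 in 4 libraries. Control replicate 3, with the lowest Acta2 and Tagln of the controls, lay within the range of the other controls in this sum, and its astrocyte marker sum was 11169 against 7632 and 7352. The astrocyte sum was also highest in replicate 3 at 1.5 h (11775 against 8134 and 7695) and at 3 h (10225 against 7855 and 8292). In these groups replicate 3 was the lowest library in Acta2, Tagln, Cnn1 and Myl9. At 6 h the astrocyte sums were 7247.5, 5822 and 6476. The part of fibroblast-like cells or of astrocytes in the contractile gene levels was not tested. In bulk RNA, a change in the number of cells of a type and a change in RNA per cell cannot be told apart.

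Markers of mural cells were more even in their sum than one by one. Summed CPM of 9 of 16 smooth muscle and pericyte markers, such as Pdgfrb, Notch3 and Myocd, was 331 to 387 in the controls, 426 to 449 at 1.5 h, 412 to 516 at 3 h and 396 to 489 at 6 h, and none was at 0 in any library. Single markers spread more widely, with Notch3 at 40.5 to 189, Pdgfrb at 44.3 to 183 and Anpep at 12.5 to 118 CPM over the 12 libraries. The median log2 fold change of the 9 markers was 0.783 at 1.5 h, with none called in the edgeR fit and 3 higher at an unadjusted p below 0.05, and 1 was called higher and 1 lower at 6 h. The 3 libraries at 1.5 h had sums of 448.9, 427.1 and 426.5 CPM, while Acta2 in replicate 3 was far below the others. Endothelial markers, 8 of 12, summed to 41.5 to 83.5 CPM over all libraries, with Tie1 at 0 in 2. Markers of the oligodendrocyte lineage, 10 of 12, summed to 614 to 1182 CPM, with a sum of 1161 and 1182 in replicates 1 and 2 at 3 h against 614 in replicate 3. Their mean log2(CPM + 1) was 5.07 and 5.09 in replicates 1 and 2 at 1.5 h, where the contractile genes were high, against 3.65 in replicate 3 and 3.55 to 3.96 in the controls. In this list Mag, Gpr17 and Enpp6 were at 0 in 3, 2 and 1 libraries, and the part of such cells in the results was not tested.

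**Figure D2:**
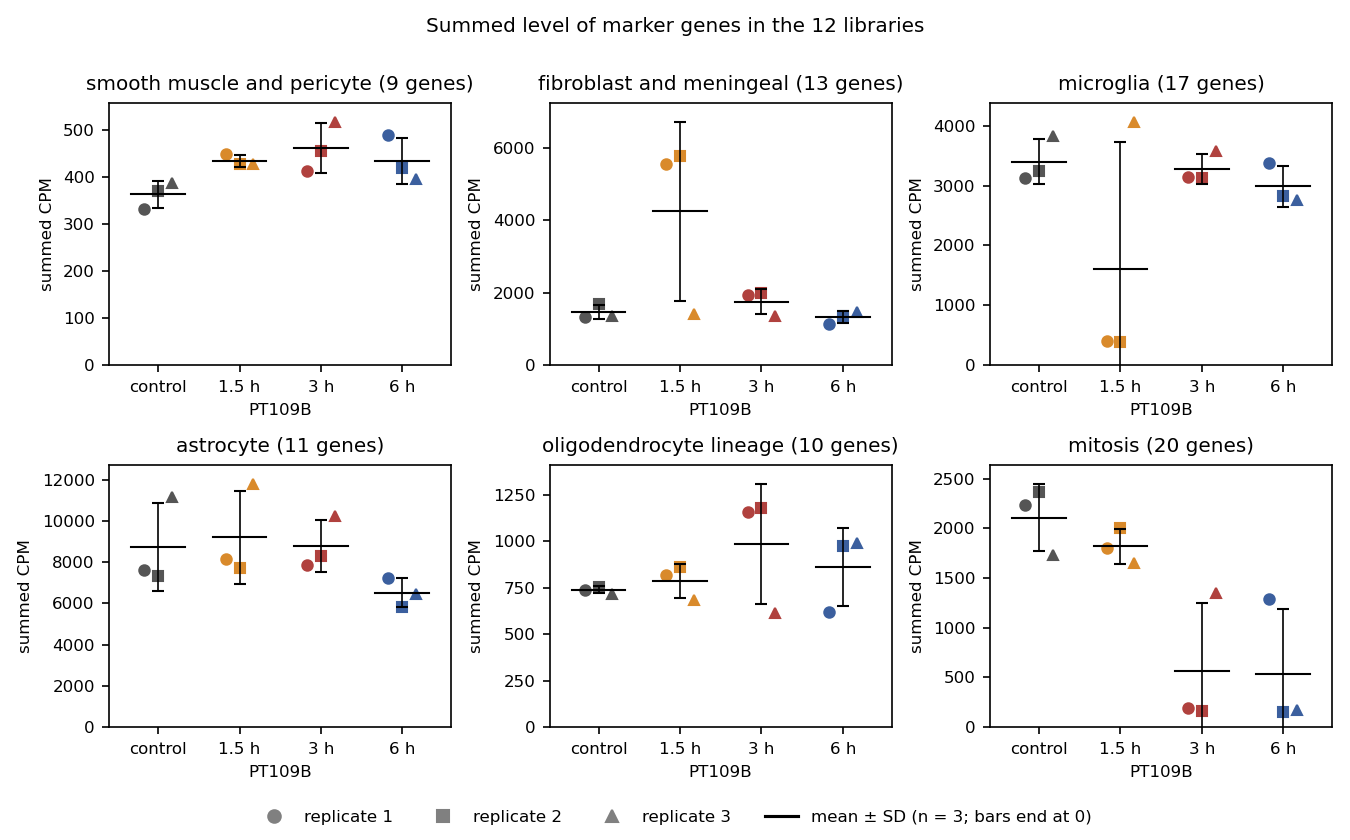
Summed CPM of 6 marker lists (smooth muscle and pericyte, fibroblast and meningeal, microglia, astrocyte, oligodendrocyte lineage and mitosis) in each library by time with PT109B, on linear axes that start at 0. Symbol shape gives the replicate number of each library, and bars are the mean ± SD of 3 libraries, ending at 0. In the fibroblast and meningeal panel the 1.5 h replicates 1 and 2 reach 5547 and 5778 while replicate 3 stays at 1397, within the control range of 1316 to 1673.

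Without 1.5 h replicate 3, 6 of the 9 genes were called higher at 1.5 h. In that fit 30% of all genes tested were called, higher and lower together. The log2 fold changes were then 1.62 for Acta2, 1.34 for Tagln, 2.19 for Cnn1, 1.18 for Myl9 and 1.45 for Lmod1 (edgeR adjusted p = 0.00162, 0.0145, 0.00435, 0.00934 and 0.00927). Xirp1 was the other. In this fit and the next the 1.5 h group held only replicates 1 and 2, in which microglia markers were low. Replicate 3 was the lowest 1.5 h library in all of the 9 genes but Xirp1. Leaving it out thus raised the 1.5 h means of those genes and narrowed their spread. The calls gained this way are no independent support for a rise. Without all 3 libraries that stood apart, all 9 genes were called higher at 1.5 h, where 59.2% of all genes were called. Of 9523 genes tested, 2734 were called higher and 2908 lower. At 6 h Xirp1 was then higher and Lmod1, Acta2, Actb, Myh11 and Myl9 lower, where 75.1% were called, higher and lower together. At 3 h Xirp1 was higher and Lmod1 and Myh11 lower, where 70.9% were called, 2989 genes higher and 3767 lower.

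Ratios within a library, which were chosen after the values had been seen and are given with no test, showed the course of Lmod1 against Acta2. Per 1000 Acta2 counts there were 96.9, 104.3 and 95.8 Lmod1 counts in the controls and 88.5, 88.7 and 93.4 at 1.5 h. The same ratio was 51.3, 33.3 and 38.5 at 3 h and 12.01, 9.80 and 9.16 at 6 h. Libraries that differed several-fold in both genes at 1.5 h thus had nearly the same ratio, and the 3 h and 6 h libraries lay below all others, those that stood apart included. The ratio of Tagln to Acta2 counts ran from 3.71 to 4.84 in the controls and at 1.5 h, was 4.93, 4.85 and 4.92 at 3 h, and was 5.21, 6.15 and 6.20 at 6 h. Myl9 to Acta2 ran from 0.423 to 0.450 in the controls, was 0.323, 0.317 and 0.459 at 1.5 h, ran from 0.5005 to 0.570 at 3 h and from 0.545 to 0.565 at 6 h. Cnn1 to Acta2 varied more between libraries, from 0.313 to 0.376 in the controls, 0.288 to 0.530 at 1.5 h, 0.3455 to 0.504 at 3 h and 0.314 to 0.679 at 6 h. None of these ratios to Acta2 spread as far over the 12 libraries as that of Lmod1.

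**Figure D3:**
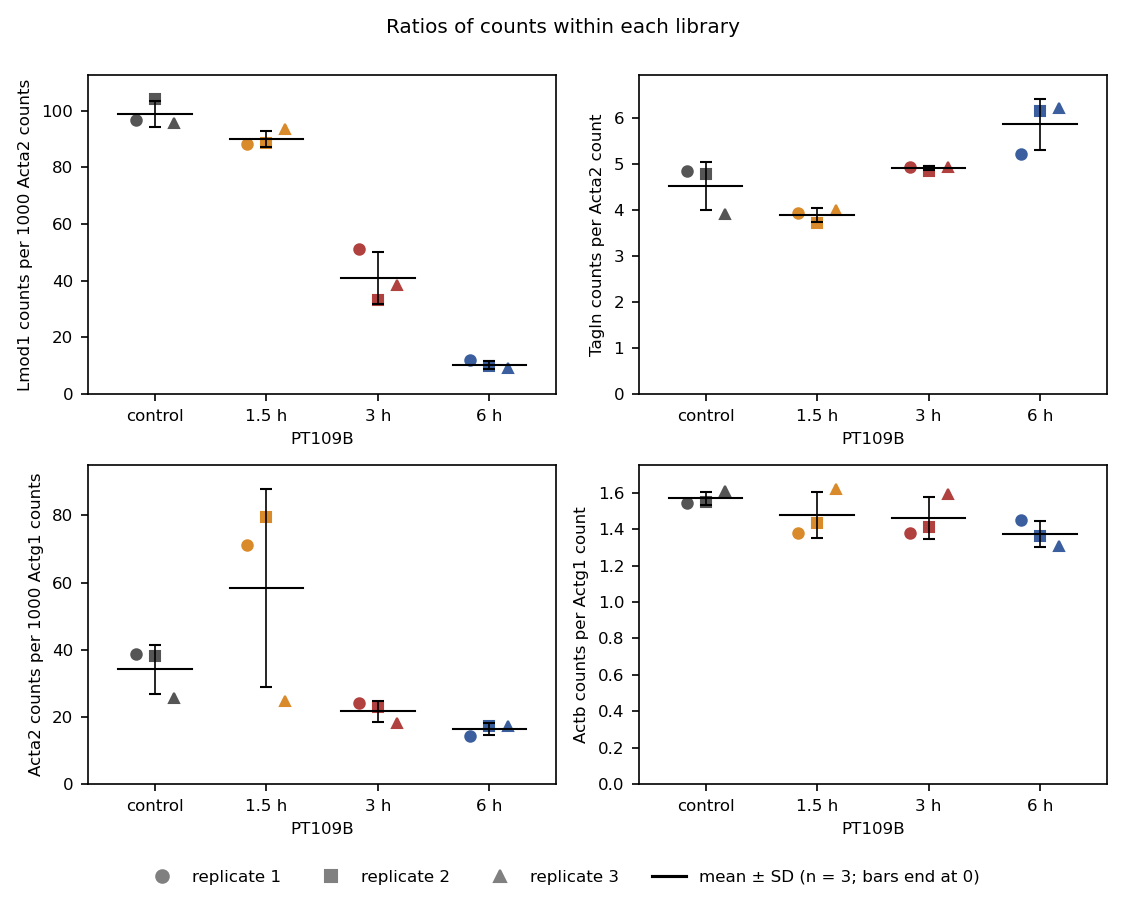
Ratios of counts between genes within each library, by time with PT109B, on linear axes that start at 0. Symbol shape gives the replicate number of each library, and bars are the mean ± SD of 3 libraries, ending at 0. Lmod1 per 1000 Acta2 counts goes from 98.98 ± 4.63 in the controls to 10.3 ± 1.49 at 6 h.

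Myh11 (ENSRNOG00000057880), the heavy chain of smooth muscle myosin and a marker of the mature smooth muscle cell, was low throughout. The controls had 11.04, 12.1 and 8.98 CPM, the 1.5 h libraries 16.5, 15.3 and 12.7 CPM, the 3 h libraries 7.28, 6.49 and 13.2 CPM and the 6 h libraries 10.9, 3.18 and 6.06 CPM. The 1.5 h libraries were above all controls, and the other groups overlapped them, with 3 h replicate 3 and 6 h replicate 1 the high libraries of their groups. These are 2 of the 3 libraries that stood apart. The log2 fold changes were 0.47 ± 0.40, -0.25 ± 0.40 and -0.67 ± 0.40 (edgeR adjusted p = 0.501, 0.663 and 0.221). Without 6 h replicate 1 alone, Myh11 fell by 1.21 at 6 h (edgeR adjusted p = 0.0290), in a fit in which 40.5% of all genes were called.

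The cytoplasmic actins Actb (ENSRNOG00000034254) and Actg1 (ENSRNOG00000036701), which form most filaments of non-muscle cells, were not called in any of the 5 comparisons. Actb had 8612, 8801 and 6581 CPM in the controls, 9921, 10652 and 8610 at 1.5 h, 7815, 7709 and 8600 at 3 h and 7968.5, 6607 and 6538 at 6 h. Actg1 had 5578, 5672 and 4085 CPM in the controls, 7203, 7421 and 5303 at 1.5 h, 5660, 5458 and 5390 at 3 h and 5489, 4846 and 5006 at 6 h. Every treated group of either gene overlapped the controls, and control replicate 3 was the lowest control in both. The log2 fold changes of Actb were 0.28 ± 0.19, 0.01 ± 0.19 and -0.18 ± 0.19 (edgeR adjusted p = 0.410, 0.980 and 0.479). For Actg1 they were 0.38 ± 0.20, 0.11 ± 0.20 and 0.00 ± 0.20 (edgeR adjusted p = 0.295, 0.710 and 0.998). The sign of Actb at 3 h and of Actg1 at 3 and 6 h turned with scaling by library size or by depth, which moved the median log2 fold change of all genes from -0.03 to between -0.215 and -0.34 at those times.

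The balance of the actin genes within a library is free of that scaling. Actb per Actg1 count was 1.54, 1.55 and 1.61 in the controls, 1.38, 1.44 and 1.62 at 1.5 h, 1.38, 1.41 and 1.60 at 3 h and 1.45, 1.36 and 1.31 at 6 h. Only the 6 h libraries were all below the controls, and replicate 3 was the high one at 1.5 and at 3 h. Acta2 per 1000 Actg1 counts was 38.7, 38.2 and 25.6 in the controls, 71.2, 79.5 and 24.8 at 1.5 h, 24.1, 23.0 and 18.1 at 3 h and 14.3, 17.3 and 17.4 at 6 h. On this ratio the 3 h and 6 h libraries were all below the controls, and 1.5 h replicates 1 and 2 were above them. In profile the nearest genes were Oxct1 for Actb (0.078) and Tubb2b, a tubulin, for Actg1 (0.076). For Myh11 it was Cav2 at 0.190, a caveolin.

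Over the 9 genes, 1 was called higher and 0 lower at 1.5 h, where 3.32% of the 9491 genes tested were called, 1.95% higher and 1.37% lower (315 genes, or 201 with the replicate number as a block in the same edgeR model). At 3 h 1 was higher and 1 lower, where 21.4% were called, 13.5% higher and 7.94% lower. At 6 h it was again 1 and 1, where 30.5% were called, 18.7% higher and 11.8% lower. From 1.5 to 3 h 0 were higher and 2 lower, where 20.3% were called, 12.1% higher and 8.23% lower (1929 genes, or 1243 with the block). From 3 to 6 h 0 were higher and 2 lower, where 4.05% were called, 2.33% higher and 1.72% lower. The median log2 fold change of the 9 genes was 0.93, -0.27 and -0.67 at 1.5, 3 and 6 h, beside medians of -0.01, -0.03 and -0.03 over all genes. The sign was positive in 9 of 9 genes at 1.5 h, in 3 at 3 h and in 2 at 6 h. These comparisons share the 3 control libraries, among them control replicate 3, so their values are not independent of each other. Over all genes the calls at 1.5, 3 and 6 h split into 185 higher and 130 lower, 1281 and 754, and 1771 and 1120. When scaled by depth they split into 168 and 217, 677 and 1718, and 1235 and 1712. Between 1.5 and 3 h the split was 1148 and 781, or 614 and 1339 by depth, and between 3 and 6 h it was 221 and 163, or 385 and 133.

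**Figure D4:**
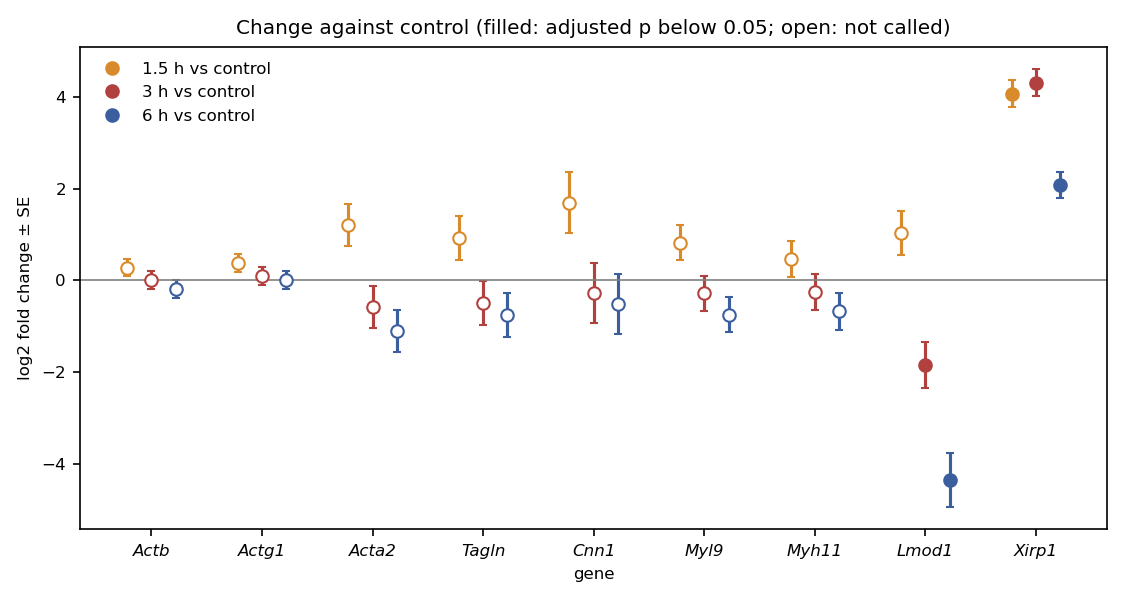
Log2 fold change against control of each of the 9 genes at 1.5, 3 and 6 h of PT109B, with bars of ± 1 SE from edgeR's fit to 12 libraries. Filled symbols are called at an adjusted p below 0.05 and open symbols are not. Xirp1 is called at 4.08, 4.32 and 2.09 and Lmod1 at -1.84 and -4.36, and the other 7 genes have no filled symbol.

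Other genes of the contractile filament were examined as a list of 31, of which 21 were in the table and tested. None was called by edgeR with TMM scaling at 1.5 or 3 h. At an unadjusted p below 0.05, 5 were higher and 0 lower at 1.5 h, and 2 and 1 at 3 h. At 6 h 4 of 21 were called lower and 0 higher, where 11.8% of all genes tested were called lower and 18.7% higher. The list medians were 0.53, -0.117 and -0.445. Scaled by library size or depth, 1 of 21 was called lower at 3 h, namely Tmod3, and 5 at 6 h. Of all 9491 genes tested, those scalings called 1887 and 1718 lower at 3 h and 1799 and 1712 at 6 h. Synpo2, an actin-bundling protein of smooth and striated muscle, fell by 1.00 at 6 h (SE 0.15, edgeR adjusted p = 0.00107), from 63.4 ± 4.90 to 31.7 ± 5.38 CPM (n = 3 each). Tmod3, which caps the slow-growing filament end, fell by 0.48 (SE 0.13, edgeR adjusted p = 0.0175). The most abundant genes of the list that were not called were the calponin Cnn3, with log2 fold changes of 0.32, 0.76 and 0.55, and the tropomyosin Tpm4, with 0.53, -0.12 and -0.15.

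Of 30 SRF and MRTF factors and cytoskeletal targets 24 were tested, and 4, 5 and 4 were higher and 0 lower at 1.5, 3 and 6 h. Over all genes tested 1.95%, 13.5% and 18.7% were called higher. The count of 4 of 24 was above that share at 1.5 h and near it at 6 h. The list was chosen with earlier results of these data known, so its counts are no independent comparison with those shares. The list medians were 0.635, 0.33 and 0.21. Srf itself rose from 71.9 ± 7.13 CPM to 181 ± 15.8 at 1.5 h, 144 ± 3.77 at 3 h and 91.4 ± 3.13 at 6 h (n = 3 each), with log2 fold changes of 1.33 ± 0.11, 1.00 ± 0.11 and 0.35 ± 0.11 (edgeR adjusted p = 8.72e-05, 0.000184 and 0.0300). Zyx, the focal adhesion protein zyxin, rose by 0.78 ± 0.15, 1.20 ± 0.16 and 0.83 ± 0.16 (edgeR adjusted p = 0.0221, 0.000607 and 0.00304). Ccn1, a secreted matricellular protein, rose at 1.5 h by 2.27 ± 0.42 (edgeR adjusted p = 0.0154), and its log2 fold changes at 3 and 6 h were 0.26 and 0.81. Tuft1 rose by 2.74 ± 0.38 at 3 h and 2.47 ± 0.38 at 6 h (edgeR adjusted p = 0.000951 and 0.00107). The fibronectin receptor subunit Itga5 was called at 1.5 and 3 h (0.85 and 0.94), and the filamin-binding Fblim1 at 3 and 6 h (0.54 and 0.69). Scaled by library size or depth, 3 were called at each time. Of all 9491 genes tested, library size scaling called 165, 650 and 1141 higher at 1.5, 3 and 6 h. Depth scaling called 168, 677 and 1235 higher. The calls lost were those of Srf at 6 h, Itga5 at 1.5 and 3 h and Fblim1 at 3 h, the sign of Ccn1 turned at 3 h, and the list median became -0.004 or 0.027 at 3 h and -0.025 or 0.002 at 6 h. The filamin gene Flna, with log2 fold changes of 0.58, 0.52 and 0.30, and Wdr1, a cofilin partner, with 0.30, 0.36 and 0.37, were the most abundant uncalled members.

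Among 29 tested genes of actin monomer and filament dynamics, of 40 listed, 0 were called by edgeR at 1.5 h (1 higher and 4 lower at an unadjusted p below 0.05), 4 were higher and 2 lower at 3 h, and 7 were higher and 3 lower at 6 h. These shares were near those over all genes, of which 13.5% and 7.94% were called higher and lower at 3 h and 18.7% and 11.8% at 6 h. Ezr, the membrane linker ezrin, rose by 0.67 ± 0.13 at 3 h and 0.91 ± 0.13 at 6 h (edgeR adjusted p = 0.00566 and 0.000732). Ssh1, a phosphatase that activates cofilin, rose by 0.66 and 1.07, and Wasf2, which activates the Arp2/3 complex, by 0.62 and 0.78 at 3 and 6 h. Enah rose by 0.55 at both times and Vasp by 0.74 at 6 h, both of which elongate filaments. With library size scaling the counts became 1 higher and 9 lower at 3 h and 3 and 6 at 6 h. Of all 9491 genes tested, that scaling called 650 higher and 1887 lower at 3 h, and 1141 and 1799 at 6 h. It lost the calls of Ssh1, Wasf2 and Enah at 3 h and of Enah and Vasp at 6 h. Actr2 and Arpc2, subunits of the Arp2/3 complex, were not called with TMM scaling, at -0.06 and 0.07 at 3 h and -0.18 and -0.03 at 6 h. With library size scaling Actr2 was called lower at 3 and 6 h (-0.37 and -0.40, edgeR adjusted p = 0.0411 and 0.0276). With depth scaling it was called lower at 6 h (-0.375, edgeR adjusted p = 0.0335). Arpc2 turned to -0.24 at 3 h with library size scaling, without a call.

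Non-muscle myosins, 10 of 12 listed, had 0 edgeR calls at 1.5 h (3 higher and 0 lower at an unadjusted p below 0.05), 1 higher and 1 lower at 3 h, and 3 higher and 1 lower at 6 h, where 13.5% of all genes were called higher and 7.94% lower at 3 h and 18.7% and 11.8% at 6 h. At 6 h Myo10, a motor of filopodia, rose by 0.78, Myo1e by 0.59 and Myo9b by 0.50, while Myo5a fell by 0.57 (edgeR adjusted p = 0.0422, 0.00712, 0.00804 and 0.0433). Myo18a fell by 0.45 at 3 h and Myo1e rose by 0.46. With library size or depth scaling the calls of Myo10 and Myo9b at 6 h and of Myo1e at 3 h were lost. Library size scaling gave 0 higher and 3 lower at 3 h and 1 higher and 2 lower at 6 h. Over all 9491 genes tested it gave 650 higher and 1887 lower at 3 h, and 1141 and 1799 at 6 h. Lower calls were gained for Myo5a and Myo9b at 3 h and Myo18a at 6 h. The heavy chains of non-muscle myosin II, Myh9 and Myh10, had log2 fold changes of 0.52 and 0.92 at 1.5 h, 0.16 and -0.13 at 3 h, and 0.07 and -0.48 at 6 h, none called. Myh10 was also among the nearest profiles to its partner Myl9, at a root mean square log2 difference of 0.156.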

How the data were processed

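TRIzol-extracted total RNA was made into libraries with a NEBNext Ultra RNA kit, per the labels' protocols. Per the file headers, the authors deposited for each library 1 column of counts, which their values show to be estimated counts. Beside it stands 1 column of FPKM from the authors, per the file headers. The submitters' processing notes name StringTie 2.2.1. Not given in the sources used here are the aligner, the genome build, the annotation and whether counting used strand. Of the count values 9.49% were not whole, in 1343 genes, and counts were rounded before testing. The table holds 9721 genes, which may be part of those measured, so adjusted p-values, TMM scaling and backgrounds refer to this set. For 58 symbols found on more than 1 line, the line with the highest mean count stands for the symbol. Near-identical gene copies and overlapping genes may share reads.

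The count test was that of edgeR 4.0.16 (R 4.3.3): filterByExpr (230 genes removed, 9491 tested), TMM, and the robust quasi-likelihood test with group as the only term and all 12 libraries. Fold changes carry a prior count of 0.125, and the SE is the absolute log2 fold change over the square root of F. The genes, the lists, the libraries that stand apart and the tests were chosen with earlier results of these data known. Named genes are the 9 genes, up to 4 called genes per list and time with the largest change and a mean CPM of at least 2, up to 2 uncalled genes per list with the highest mean CPM, and the 4 nearest profiles (mean CPM of at least 5, log2 of CPM plus 0.5), of which the first ones are printed. Alternatives were other scaling (RLE, library size, relative depth from the ratio of count to FPKM), no filter, DESeq2 1.42.0, limma 3.58.1 on log2 FPKM with a pseudocount of 1 or 0.1, a replicate block, fits of only 2 groups, and leaving out libraries. Some results for listed genes are not reported here. The labels do not say what replicate numbers share. Deviations of same-numbered libraries from their group means correlated at 0.200, 0.368 and 0.451 between control and 1.5 h. Between 1.5 and 3 h they correlated at 0.179, 0.166 and 0.224. The numbers may thus mark pairs there, but libraries with different numbers were not compared. Other groups gave no such sign of pairing, with -0.651, 0.599 and -0.657 between 3 and 6 h. The main fit left pairing out, and the replicate block covered all 12 libraries, 6 h included, so neither matches this pattern exactly.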

Additional observations from a re-analysis of the deposited data

Results flagged for a closer look

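The differences from the 0 h control were not the same at successive times for 3 of the 9 genes, by the direct edgeR test of 1 time against the next, with time and compound not told apart. Acta2 differed by -1.78 on the log2 scale between 1.5 and 3 h (edgeR adjusted p = 0.0286), with all 3 h libraries below replicates 1 and 2 at 1.5 h but not all below replicate 3. Lmod1 differed by -2.88 between 1.5 and 3 h and by -2.52 between 3 and 6 h (edgeR adjusted p = 0.00714 and 0.0410), lower in 3 of 3 libraries each time. Xirp1 differed by -2.23 between 3 and 6 h (edgeR adjusted p = 0.00624), lower in 3 of 3 libraries. Of all genes tested 20.3% were called between 1.5 and 3 h and 4.05% between 3 and 6 h. Of 16 alternatives, 5 lost the Acta2 call and 0 the Xirp1 call. For Lmod1, 1 lost the call between 1.5 and 3 h and 8 that between 3 and 6 h.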

How the results depend on the processing

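The 45 log2 fold changes of the 9 genes were recomputed in 720 alternatives, of which 636 kept direction and side of the threshold, 17 lost a call, 41 gained one and 26 changed sign. Xirp1 against control and from 3 to 6 h, and Lmod1 at 6 h, kept their calls in every alternative run. The sign changes were all in values that were not called, and their cause was not tested. Actb at 3 h became -0.30 under library size scaling, -0.27 under depth scaling and under both FPKM fits, -0.0328 with no filter, and -0.10 without the 3 libraries that stand apart, and ranged from -0.114 to 0.0823 with 1 library left out. Actg1 at 3 h became -0.21 under library size, -0.18 under depth scaling and -0.17 under both FPKM fits, and ranged from -0.0311 to 0.188 with 1 library left out. Actg1 at 6 h became -0.22 under library size, -0.19 under depth scaling, -0.071 with no filter, -0.18 under both FPKM fits, -0.0227 in the fit of only 2 groups and -0.14 without the 3 libraries, and ranged from -0.137 to 0.082 with 1 library left out. Cnn1 from 3 to 6 h became 0.0574 without 6 h replicate 1, and ranged from -0.516 to 0.0574 with 1 library left out.

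Members called from 1.5 to 3 h were 5 under library size scaling, depth scaling and DESeq2, and 0 in the fit of only 2 groups. The first 3 of these fits called 2048, 1953 and 2800 of 9491 genes. From 3 to 6 h 1 was called in both FPKM fits, where 520 and 481 genes were called, and in the fit of only 2 groups. At 6 h 4 were called in the fit of only 2 groups, where 39.7% of all genes were called. Genes called numbered 801 at 1.5 h and 842 from 3 to 6 h with DESeq2, and 76 from 1.5 to 3 h and 7 from 3 to 6 h in fits of only 2 groups. With the replicate block they numbered 201 at 1.5 h, 1243 from 1.5 to 3 h and 159 from 3 to 6 h, and the block changed no call of the 9 genes. Without the 3 libraries 5642, 6756 and 7154 genes were called at 1.5, 3 and 6 h, 6655 from 1.5 to 3 h and 3251 from 3 to 6 h, with 9, 3 and 6 members called against control and 8 from 1.5 to 3 h.

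With 1 library left out, genes called ranged from 115 to 2871 at 1.5 h, 849 to 3697 at 3 h, 1741 to 3868 at 6 h, 422 to 4051 from 1.5 to 3 h and 41 to 788 from 3 to 6 h. Members called ranged from 1 to 6, 1 to 2, 2 to 3, 1 to 5 and 1 to 2 in the same order. Lmod1 counts of 7 to 11 at 6 h limit the precision of its fold change, which was -2.25 in the fit on log2(FPKM + 1).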
